A study of Mus musculus with 6 samples.

Results

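The 38 genes described here encode the working parts of the lysosome: cathepsins and other proteases, sugar- and lipid-degrading hydrolases, lysosomal membrane proteins, and the transcription factors Tfeb, Tfe3 and Mitf. They were taken by symbol from a table of 55291 genes, and each of the 38 was found there and passed the filter on low counts, as did 18621 genes in all. The libraries came from tumours of CT2A, a mouse glioblastoma cell line, grown under the skin. Hosts were Siglece knockout (KO) mice for 3 libraries and wild-type (WT) mice for 3 libraries, and all 6 carried the same tumour line. The labels place the tumour under the skin but give the source as brain, and they state no strain, age or allele for the hosts. Each library was made with Smart-seq2 from 5000 to 20000 cells that the labels call CT2A. No sort or gate is named, and the macrophage, fibroblast and T cell genes Csf1r, Col1a1 and Cd3e were present in every library. The labels give each library its own identifier but do not say whether libraries of a genotype are from different mice. The p-values here therefore rest on library-to-library spread that may be technical. Below, 3 values for a genotype are those of replicates 1, 2 and 3 in that order.

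Lysosomes are acidic compartments in which proteases, glycosidases and lipases break down material taken up from outside the cell or delivered by autophagy. Phagocytes such as macrophages hold many of them, and cathepsins can also be secreted and act on the matrix around a tumour. Tfeb, Tfe3 and Mitf are related basic helix-loop-helix factors that bind E-box sites of the CLEAR type (core letters TCACGTG) near the start of many lysosomal genes. Siglece encodes Siglec-E, which binds sialic acid and inhibits mouse myeloid cells.

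To show which members carry such a site, windows of 300 bases (250 before and 50 after the start site) were read from the RefSeq promoter table (GRCm38.p6, the mm10 build), which matched 32 of the 38 members. The 8-letter palindrome TCACGTGA was found in the windows of Ctsa, Ctsd, Ifi30 and Gla, where capitals mark it below in sequence read along the strand of the gene.
Ctsa, chr2:164833749-164833778, plus strand, 13 bases before the start site: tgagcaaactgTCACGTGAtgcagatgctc
Ctsa, chr2:164833766-164833795, plus strand, 4 bases after the start site: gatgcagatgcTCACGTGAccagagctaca
Ctsd, chr7:142387908-142387937, minus strand, 99 bases before: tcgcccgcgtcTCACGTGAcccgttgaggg
Ifi30, chr8:70766842-70766871, minus strand, 197 bases before: atccaaaaactTCACGTGAccagacatgct
Gla, chrX:134601215-134601244, minus strand, 228 bases before: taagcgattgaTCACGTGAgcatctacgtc
Gla, chrX:134601182-134601211, minus strand, 195 bases before: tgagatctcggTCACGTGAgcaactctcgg
Lgmn and Gaa, 1 gene that rose and 1 that did not in the results that follow, held the 7 letters TCACGTG.
Lgmn, chr12:102439124-102439153, minus strand, 50 bases before: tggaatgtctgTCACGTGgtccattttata
Gaa, chr11:119267811-119267840, plus strand, 141 bases before: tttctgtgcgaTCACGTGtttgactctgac
Lamp1 held the 7 letters 4 times, on either strand, within 73 bases just before its start site, shown as 1 stretch with the 4 copies in capitals.
Lamp1, chr8:13159088-13159160, plus strand: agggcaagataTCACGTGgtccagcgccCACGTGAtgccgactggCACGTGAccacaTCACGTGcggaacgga

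Counted over both strands, TCACGTG stood in the windows of 9 of the 32 members (28.1%) and of 6.41% of the 12471 tested genes that had a window. The longer TCACGTGA stood in 4 of the 32 (12.5%) and in 1.95% of tested genes, and the shorter CACGTG, which both contain, in 11 (34.4%) and in 1371 of the 12471 tested genes. GAGGAAGT, the letters of a site bound by the myeloid factor PU.1, stood in the windows of Ctsc, Ctss, Gusb and Gla (12.5%, against 3.89% of tested genes). Of 16 members with a window that were called higher in KO, 4 held TCACGTG, and of 16 that were not called, 5 did. A match is a description of letters in a window and shows no binding.

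Siglece itself was counted 0, 8 and 0 times in the KO libraries, against 74, 99 and 64 times in the WT libraries. Library totals lay between 24369359 and 40574093 counts, and 3 counts, the limit that a count of 0 allows, stood for at most 0.150 CPM (counts scaled to a common TMM-adjusted library size). KO replicate 2 was the lowest KO library for 37 of the 38 members: the median member stood 0.66 above the WT mean there, against 1.86 and 2.21 in KO replicates 1 and 3 (log2 scale). The glial and glioma markers Sox2 and Olig2 were counted in every library, and Gfap in every library but KO replicate 3 (33, 241 and 0 counts in KO, 262, 328 and 329 in WT). Sox2 was at 18.6, 147 and 4.74 CPM in KO against 205, 228 and 227 CPM in WT, and Olig2 at 9.66, 96.4 and 3.99 CPM and 168, 131 and 141 CPM, neither past the threshold (edgeR adjusted p = 0.219 and 0.206).

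Many of the lysosomal genes were higher in KO tumours. Of the 38 members 19 rose and 0 fell at an adjusted p of 0.05 (edgeR's quasi-likelihood test, two-sided, Benjamini-Hochberg over all genes tested), while 11.2% of all tested genes were called higher and 0.226% lower. At an unadjusted p under 0.05, 35 members were higher and 0 lower, against 22.2% and 9.57% of all genes, and DESeq2 and limma-voom also called 0 lower (against 6.68% and 0.166% of all genes). The median log2 fold change of the members was 1.75, against -0.05 over all genes tested. It was positive for 37 of the 38, against 8999 of the 18621 tested genes. In 30 members every KO library was above every WT library, an order found for 24.6% of tested genes, and in 0 members every KO library was below, against 19.5%. These are descriptions, since the members were chosen with earlier results of these data known.

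**Figure D1:**
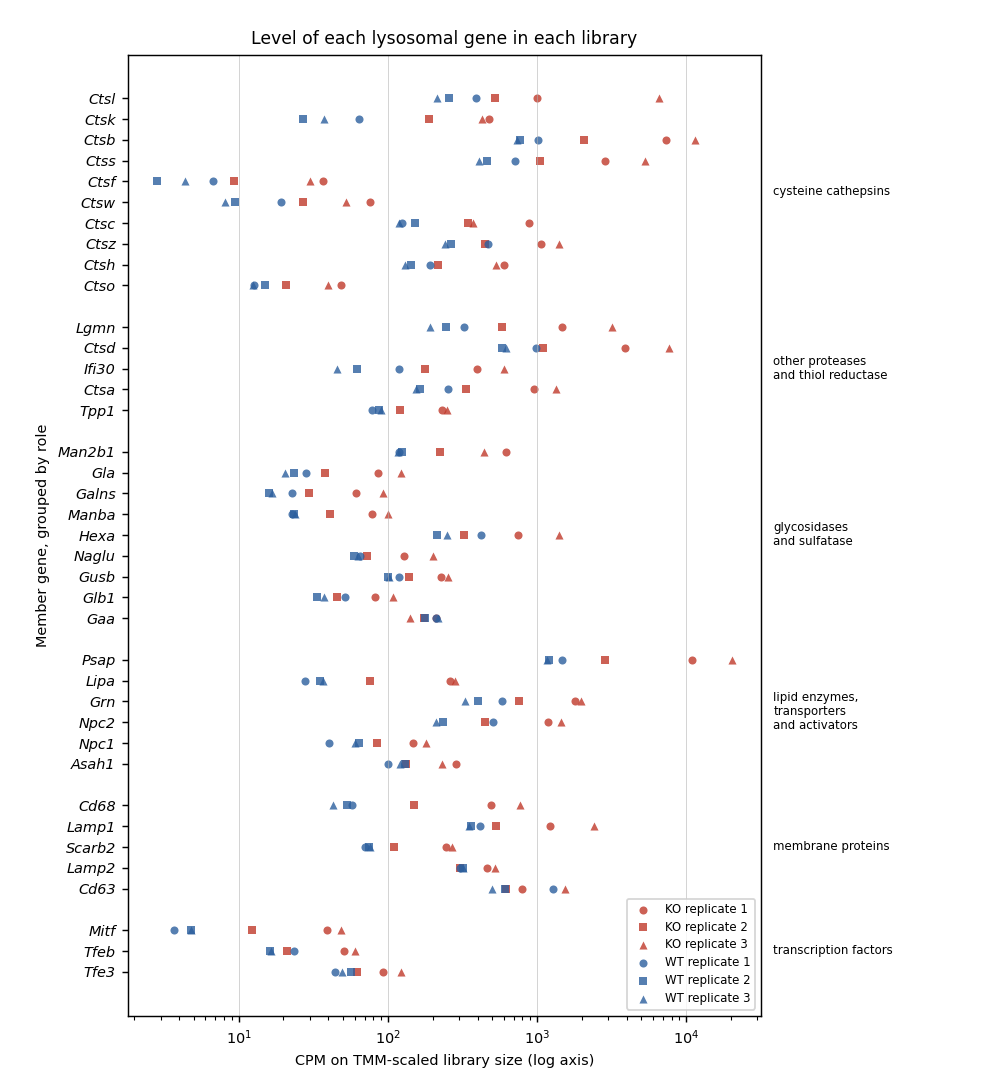
Level of each of the 38 lysosomal genes in each library, as CPM on TMM-scaled library sizes (log axis), with genes grouped by role on the vertical axis. Red points are KO and blue points WT libraries, and the marker shape gives the replicate. The KO replicate 2 squares are the lowest KO points in each row but that of Gaa. The groups overlap in 8 rows: Ctsz, Hexa, Gaa, Glb1, Npc2, Lamp2, Cd63 and Tfeb.

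The members took 3.99%, 1.58% and 5.96% of all counts in the KO libraries and 0.970%, 0.859% and 0.812% in the WT libraries. Every KO library was above every WT library, and KO replicate 2 was closest to WT. The means were 3.84 ± 2.19% and 0.880 ± 0.0811% (SD, n = 3 each). Psap alone made up 26.5%, 19.7% and 28.1% of the member counts in the KO libraries and 13.6%, 15.9% and 16.3% in the WT libraries. Without Psap the share of all counts was 2.93%, 1.27% and 4.28% in KO and 0.837%, 0.723% and 0.679% in WT. KO replicate 3 was the highest KO library for 29 members and KO replicate 1 for the other 9, while KO replicate 2 was the lowest for 37. Over all tested genes KO replicate 2 was the lowest KO library for 7108 of 18621. KO replicates 1, 2 and 3 were the highest KO library for 4683, 7424 and 6514 of these genes.

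The cysteine cathepsins, papain-like proteases of the lysosome, rose in 7 of 10 cases, against 11.2% of all tested genes. Their median log2 fold change was 2.26. Ctsb (cathepsin B, chromosome 14, 63122462 to 63145923 in mm10, plus strand), a broad endo- and exopeptidase, was at 7374, 2058 and 11444 CPM in the KO libraries against 1013, 769 and 741 CPM in the WT libraries. Every KO library lay above WT, with a log2 fold change of 3.05 (SE 0.68, adjusted p = 0.0310, edgeR). Ctsk (chromosome 3, 95499256 to 95509362, plus strand), a collagen-degrading enzyme best known from osteoclasts, was at 474, 188 and 428 CPM in KO against 64.5, 26.9 and 37.3 CPM in WT. It had the smallest adjusted p among the cathepsins (log2 fold change 3.08, SE 0.50, adjusted p = 0.0246, edgeR), and its lowest KO library was above its highest WT library. Ctss (chromosome 3, 95526786 to 95556403, plus strand), which cleaves the invariant chain of MHC class II in antigen-presenting cells, was at 2855, 1052 and 5332 CPM and at 708, 459.8 and 407 CPM, again without overlap. Its fold change was 5.87 (log2 2.55, SE 0.63, adjusted p = 0.0414, edgeR).

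Ctsc, which activates the serine proteases of granules, was at 879.5, 343 and 372 CPM in KO against 125, 153 and 119 CPM in WT (4.01-fold, SE 0.44 on the log2 scale, adjusted p = 0.0307, edgeR). It was highest in KO replicate 1, unlike Ctsb and Ctss, which peaked in KO replicate 3. Ctsw, a cathepsin of cytotoxic T and NK cells, was at 76.1, 27.2 and 52.6 CPM in KO against 19.2, 9.43 and 8.15 CPM in WT, and rose by a log2 fold change of 2.08 (SE 0.49). Ctsf and Ctso, at lower levels, rose by 2.44 (SE 0.58) and 1.44 (SE 0.36) on the log2 scale. Ctsh and Ctsz, an aminopeptidase and a carboxypeptidase, did not pass (log2 fold changes 1.54 and 1.58, adjusted p = 0.0591 and 0.0844, edgeR), and for Ctsz KO replicate 2 (451 CPM) lay below WT replicate 1 (472 CPM). For Ctso the adjusted p was 0.0531 under RLE size factors, 0.0654 with library totals only and 0.0673 with limma-voom. Ctsf and Ctsw had an adjusted p of 0.0675 and 0.0504 with limma-voom.

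Ctsl, another broad cathepsin, had the greatest log2 fold change of the 38 (3.23, SE 0.95) and yet did not pass (adjusted p = 0.0663, edgeR). It was at 1002, 527 and 6582 CPM in KO against 392.5, 256 and 214 CPM in WT, so that KO replicate 3 was far above the other KO libraries although the groups did not overlap. Without KO replicate 3 the log2 fold change was 1.38 (adjusted p = 0.123). KO replicate 3 also held more counts of Gm47123, an opposite-strand gene over Ctsl exons, with 546 counts against 64 and 35 in KO replicates 1 and 2 and 18 to 26 in WT.

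**Figure D2:**
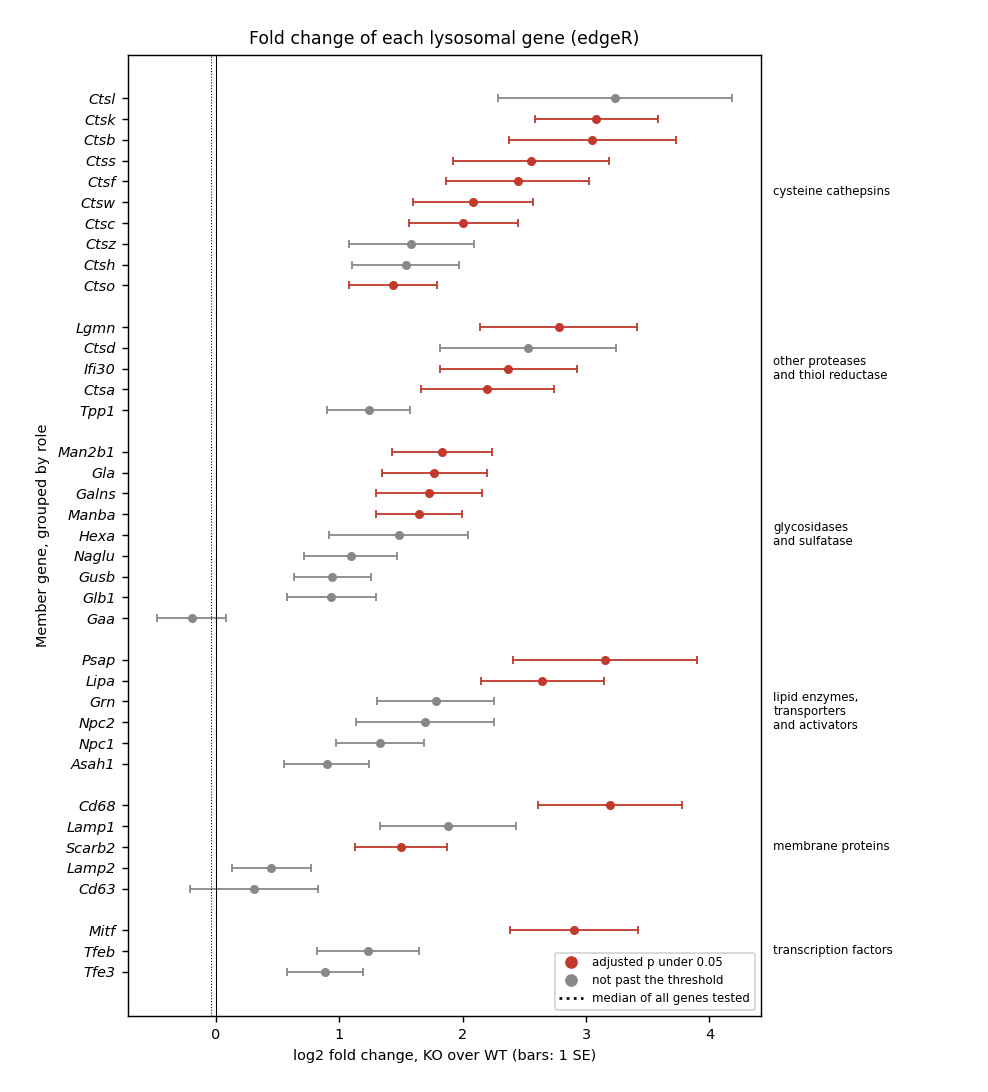
Log2 fold change (KO over WT) of each lysosomal gene from edgeR, with bars of 1 SE, grouped by role. Red points passed an adjusted p of 0.05 and grey points did not; the dotted line marks the median of all genes tested at -0.05, and 37 of the 38 points lie above 0.

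On the per-length scale (TPM, which divides counts by merged exon length) the 10 cysteine cathepsins can be compared with each other. Ctss made up 43.2%, 44.0% and 47.2% of their summed TPM in the KO libraries and 43.5%, 43.8% and 42.5% in the WT libraries, a span of 42.5% to 47.2%. Ctsb took 25.0%, 19.3% and 22.7% in KO and 14.0%, 16.4% and 17.4% in WT, with every KO library above every WT library. The opposite order held for Ctsz, with 15.1%, 17.8% and 11.8% in KO and 27.3%, 23.8% and 23.8% in WT. Ctsh took 2.31 ± 0.764% and 3.93 ± 0.326% (SD, n = 3 each). Ctsl took 12.2% in KO replicate 3 and from 3.17% to 5.10% in the other 5 libraries. These shares were not tested.

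**Figure D3:**
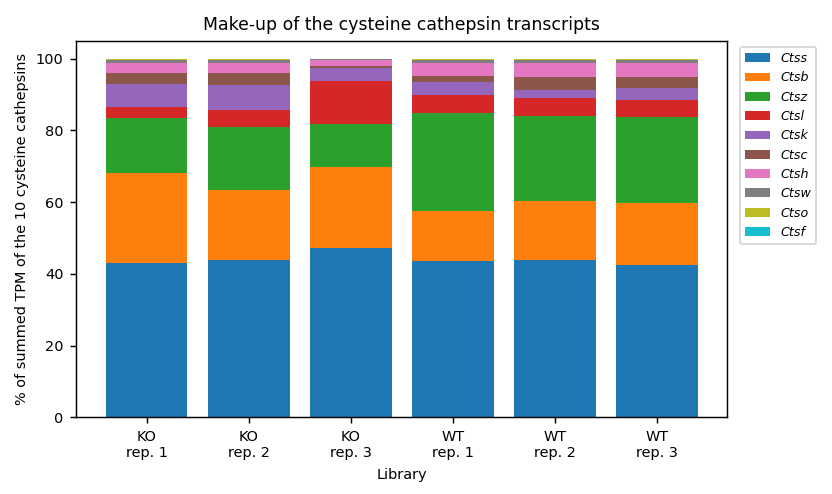
Percent of the summed TPM of the 10 cysteine cathepsins taken by each, stacked to 100% for each of the 6 libraries. Ctss takes between 42.5% and 47.2% in every library, Ctsz is smaller in the KO bars, and Ctsl is widest in KO replicate 3.

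Among the other proteases and the thiol reductase 3 of 5 rose, against 11.2% of all tested genes. Lgmn (legumain, chromosome 12, 102394084 to 102439813, minus strand), which cuts after asparagine and matures cathepsins, was at 1479, 582 and 3163 CPM in KO against 323, 245 and 192 CPM in WT (log2 fold change 2.78, SE 0.64, adjusted p = 0.0333, edgeR). Ifi30 (chromosome 8, 70762774 to 70766663, minus strand), a reductase that opens disulfide bonds of antigens, was at 397, 177 and 603 CPM in KO against 119, 62.5 and 46.0 CPM in WT, without overlap. Ctsa, the serine carboxypeptidase also called protective protein, had a log2 fold change of 2.20 (SE 0.54, adjusted p = 0.0401), and 0.0504 was its adjusted p with limma-voom. Ctsd, the main aspartic protease of the lysosome, was at 3875, 1097 and 7685 CPM in KO against 984, 587 and 623 CPM in WT and did not pass (log2 fold change 2.53, SE 0.71, adjusted p = 0.0586, edgeR). Its groups did not overlap, but KO replicate 2 was only just above WT replicate 1. Tpp1, a tripeptidyl peptidase, was at 201 ± 70.4 CPM in KO against 85.4 ± 6.48 CPM in WT (SD, n = 3 each; adjusted p = 0.0535, edgeR).

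Of the 8 glycosidases and the sulfatase Galns, 4 rose, against 11.2% of all tested genes. The median log2 fold change over the 9 was 1.48. Man2b1 and Manba, which trim mannose from glycoproteins, were at 429 ± 198 and 73.1 ± 29.9 CPM in KO against 121 ± 4.14 and 23.3 ± 0.541 CPM in WT (SD, n = 3 each), and rose by 1.83 (SE 0.41) and 1.65 (SE 0.35) on the log2 scale. Manba stood at 78.6, 40.8 and 99.8 CPM in the KO libraries, all above the WT libraries at 22.7, 23.5 and 23.8 CPM. Gla, the alpha-galactosidase that is lacking in Fabry disease, and Galns, which removes sulfate from keratan and chondroitin sulfate, rose by 1.77 (SE 0.43) and 1.72 (SE 0.43) on the log2 scale. Both missed the threshold with limma-voom (adjusted p = 0.0613 and 0.0658).

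The other glycosidases did not pass. Hexa, a subunit of beta-hexosaminidase, Naglu, Gusb (beta-glucuronidase) and Glb1 (beta-galactosidase) had log2 fold changes of 1.48, 1.09, 0.94 and 0.93, with adjusted p from 0.0900 to 0.128 (edgeR). Gaa, the acid alpha-glucosidase that digests glycogen, was the 1 member with a negative value. It was at 212, 174 and 141 CPM in KO against 210.0, 178 and 217 CPM in WT, with overlapping groups (log2 fold change -0.20, SE 0.28, adjusted p = 0.638, edgeR). Its value ranged from -0.44 to -0.01 over the fits run here, and its promoter window held TCACGTG as shown above.

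Of 6 genes for lipid handling 2 rose, against 11.2% of all tested genes. Psap (prosaposin, chromosome 10, 60277627 to 60302597, plus strand), the precursor of the saposins that present sphingolipids to their hydrolases, was at 11035, 2842 and 20312 CPM in KO against 1467, 1209 and 1171 CPM in WT. Every KO library lay above WT for Psap too, by a log2 fold change of 3.15 (SE 0.75, adjusted p = 0.0365, edgeR). On the TPM scale Psap was the most abundant member in both groups, at 9750 ± 5833 in KO and 1359 ± 237 in WT (SD, n = 3 each), followed by Ctss and Ctsd in both. In KO the spread of Psap and of Ctss (5385 ± 2690) over libraries overlapped, but within each of the 6 libraries Psap was above Ctss. The nearest pair was in WT replicate 1 (1087 against 1059 TPM). Lipa (chromosome 19, 34492318 to 34527474, minus strand), the acid lipase that frees cholesterol from lipoprotein esters, was at 263, 76.6 and 283 CPM in KO against 27.8, 35.2 and 36.5 CPM in WT. Lipa rose by 2.65 on the log2 scale (SE 0.50, adjusted p = 0.0246, edgeR), and the lowest KO library was above every WT library.

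Npc1 and Npc2, which hand cholesterol out of the lysosome, were at 138 ± 49.2 and 1031 ± 523 CPM in KO against 54.9 ± 12.9 and 319 ± 164 CPM in WT and did not pass (adjusted p = 0.0520 and 0.0896, edgeR). Grn (progranulin, a secreted glycoprotein that also reaches the lysosome) just missed the threshold, at 1787, 759 and 1978 CPM in KO against 582, 405 and 330.2 CPM in WT (log2 fold change 1.78, SE 0.48, adjusted p = 0.0508, edgeR). It passed with library totals only (adjusted p = 0.0435). Asah1, an acid ceramidase, had a log2 fold change of 0.90 (SE 0.35, adjusted p = 0.127).

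Of 5 membrane proteins 2 rose, against 11.2% of all tested genes, and the log2 fold changes of the 5 ran from 0.31 to 3.19. Cd68 (chromosome 11, 69664213 to 69666153, minus strand), a heavily glycosylated endosomal and lysosomal protein used as a macrophage marker, was at 489, 151 and 774 CPM in KO against 58.0, 53.4 and 43.2 CPM in WT. Cd68 rose by 3.19 on the log2 scale (SE 0.58, adjusted p = 0.0246, edgeR) and the groups did not overlap. Scarb2 (LIMP-2), the carrier of glucocerebrosidase, rose 2.83-fold (SE 0.37 on the log2 scale), and had an adjusted p of 0.0514 under RLE size factors, 0.0572 with library totals only and 0.0541 with limma-voom. Lamp1, a structural protein of the lysosomal membrane, was at 1218, 535 and 2418 CPM in KO against 418, 364 and 352 CPM in WT and did not pass (log2 fold change 1.88, SE 0.55, adjusted p = 0.0665, edgeR).

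Lamp2 and Cd63, broadly expressed proteins of lysosomes and late endosomes, had the smallest positive values of the 38. Lamp2 was at 463, 307 and 527 CPM in KO against 307, 320.5 and 322 CPM in WT, where KO replicate 2 was level with WT replicate 1 (log2 fold change 0.45, SE 0.32, adjusted p = 0.342, edgeR). Cd63 was at 789, 617 and 1547 CPM in KO against 1275, 610.4 and 499 CPM in WT, with WT replicate 1 above KO replicates 1 and 2 (log2 fold change 0.31, SE 0.52, adjusted p = 0.693, edgeR). Without KO replicate 3 the Cd63 value was -0.21.

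Of the transcription factors Mitf rose, and Tfeb and Tfe3 did not pass. Mitf (chromosome 6, 97807052 to 98021349, plus strand), a factor of melanocytes, osteoclasts and mast cells that macrophages also use, was at 39.0, 12.2 and 48.5 CPM in KO against 3.69, 4.81 and 4.82 CPM in WT. All KO libraries were above all WT libraries, with a log2 fold change of 2.90 (SE 0.52, adjusted p = 0.0246, edgeR). Of 6 melanocyte markers, Tyr and Tyrp1 had 0 counts in each library, and Dct and Oca2 had at most 9 and 3 counts and were not tested. Mlana rose, with 37, 26 and 103 counts in KO against 2, 2 and 1 in WT (adjusted p = 0.0246, edgeR). Pmel, at 2.18, 4.64 and 1.20 CPM in KO against 12.6, 6.24 and 9.05 CPM in WT, did not pass (adjusted p = 0.0824, edgeR). The part of these markers in the Mitf result was not tested. Tfeb was at 50.9, 21.1 and 59.9 CPM in KO against 23.6, 16.2 and 16.4 CPM in WT, with KO replicate 2 below WT replicate 1 (log2 fold change 1.23, SE 0.41, adjusted p = 0.0938, edgeR). Tfe3 was at 92.6 ± 30.1 CPM in KO against 50.2 ± 6.38 CPM in WT (SD, n = 3 each; adjusted p = 0.101, edgeR). Among regulators of these factors 1 of 18 rose, against 11.2% of all tested genes. It was Tfec, the remaining member of the family, with a log2 fold change of 2.71 (SE 0.51). Flcn, part of the nutrient-sensing complex that holds Tfeb and Tfe3 in the cytoplasm, had a log2 fold change of 0.90 (adjusted p = 0.0967), and Rragb, a Rag GTPase, one of -2.01 (SE 0.72, adjusted p = 0.107, edgeR), with every KO library below every WT library.

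Further lysosomal genes, none of them among the 38, were also examined. Of 126 such genes 125 were in the table and 121 were tested. Of the 121, 30 rose and 0 fell, against 11.2% and 0.226% of all tested genes. At an unadjusted p under 0.05 (edgeR) 63 were higher, against 22.2% of all tested genes. Their median log2 fold change was 0.88, against -0.05 over all genes tested. DESeq2 called 3 of them lower, against 6.68% of all tested genes. Whether the share differed from that of the 38 was not tested. Of the 17 V-ATPase subunits, which acidify the lysosome, 15 were not called and 2 rose, close to the 11.2% share of all tested genes. Atp6v0d2, a subunit of macrophages and osteoclasts, was at 193 ± 212 CPM in KO against 6.31 ± 1.41 CPM in WT (log2 fold change 4.93, SE 0.96). The other was Atp6v0c (1.32, SE 0.34). Atp6v1b2 did not pass (2.03, SE 0.60, adjusted p = 0.0666, edgeR). Of 36 further hydrolases 11 rose, against 11.2% of all tested genes. Those with the smallest p were Acp2 (1.75, SE 0.35), an acid phosphatase, Dpp7 (1.84, SE 0.39), a dipeptidyl peptidase, and Pla2g15 (2.18, SE 0.46), a phospholipase.

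The share to set beside each count in this paragraph is the 11.2% of all tested genes that were called higher. Of 23 further membrane proteins and channels 7 rose, among them the cation channel Mcoln2 at 21.9 ± 8.46 CPM in KO against 2.59 ± 0.502 CPM in WT (log2 fold change 3.08, SE 0.43), Cln3 (2.08, SE 0.39), and Slc11a1 (2.35, SE 0.46), a metal transporter of phagosomes. Of 19 genes for sorting to lysosomes 5 rose, including the receptor Sorl1 (2.70, SE 0.45), Nagpa (1.76, SE 0.37), which uncovers the mannose 6-phosphate tag, and Sumf1 (1.53, SE 0.33), which activates sulfatases. Among cystatins, stefins and serpins 8 of 13 could be tested, and 4 rose. The 3 with the smallest p were Serpinb9, an inhibitor of granzyme B (1.95, SE 0.36), Serpinb1a, an inhibitor of neutrophil serine proteases (2.22, SE 0.43), and Cst7, a cystatin that acts inside cells (2.16, SE 0.44).

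Most lists of immune and stromal markers moved with the members, while glial and glioma markers moved the other way. All are of cells that could supply lysosomal transcripts, and their part in the result was not tested. The share to set beside each count of risen markers is the 11.2% of all tested genes that were called higher. Of 15 macrophage markers, none of them a member, 10 rose. Their summed level was 8693, 2929 and 9333 CPM in the KO libraries against 2061, 1359 and 1203 CPM in the WT libraries. As with the members, KO replicate 2 was the lowest KO library and was above every WT library. Fibroblast markers (8 of 9 rose, summed 12387 to 38834 CPM in KO against 2285 to 3648 CPM in WT) and T and NK cell markers (6 of 11, 271 to 797 CPM and 94.0 to 173 CPM) did likewise. Markers of neutrophils (3 of 5 tested), endothelium (5 of 6), skeletal muscle (5 of 6) and mast cells (3 of 7) also rose in part. So did those of B and plasma cells (3 of 5 tested) and conventional dendritic cells (3 of 6). Of adipocyte markers 1 of 6 rose, and of keratinocyte markers 0 of 2 tested. Glial and glioma markers summed to 1606 to 3673 CPM in KO against 4481 to 6109 CPM in WT. Of the 10, 9 had negative log2 fold changes, against 9622 of the 18621 tested genes. The 2 that fell were Slc1a3 and Cspg5 (log2 fold changes -2.21 and -3.22), where 0.226% of all tested genes were called lower. Of 6 osteoclast markers 4 were tested and 2 rose, and the 6 summed to 271 to 755 CPM in KO against 52.9 to 131 CPM in WT. Ocstamp and Dcstamp were counted in every library and did not pass (adjusted p = 0.191 and 0.115, edgeR). Calcr, the calcitonin receptor, was at 0 in each library but WT replicate 2 (0.0855 CPM). In bulk samples a greater number of cells of a type and more RNA per cell cannot be told apart.

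The summed CPM of the 38 members was 4.80, 4.93 and 7.75 times that of the macrophage markers in the KO libraries and 5.22, 5.60 and 5.96 times in the WT libraries. These ratios overlapped: KO replicates 1 and 2 were below each WT library and KO replicate 3 was above. Taken gene by gene relative to the same marker sum, 4 members (Ctsb, Ctsk, Cd68 and Mitf) had every KO library above every WT library and 16 had every KO library below, against 2.8% and 65.3% of 17367 tested genes without a zero. The median difference was -0.42 on the log2 scale for the members and -2.03 over those genes. Of the 9 glycosidases and sulfatase 7 were below, against the same 65.3% of tested genes without a zero. Gaa, Glb1, Gusb and Naglu were among the 7, and Lamp2, Cd63, Tfeb and Tfe3 were below too. With C1qa, C1qb and C1qc left out of the markers 3 members were above (Mitf then overlapped) and 19 below, against 2.32% and 73.6%.

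**Figure D4:**
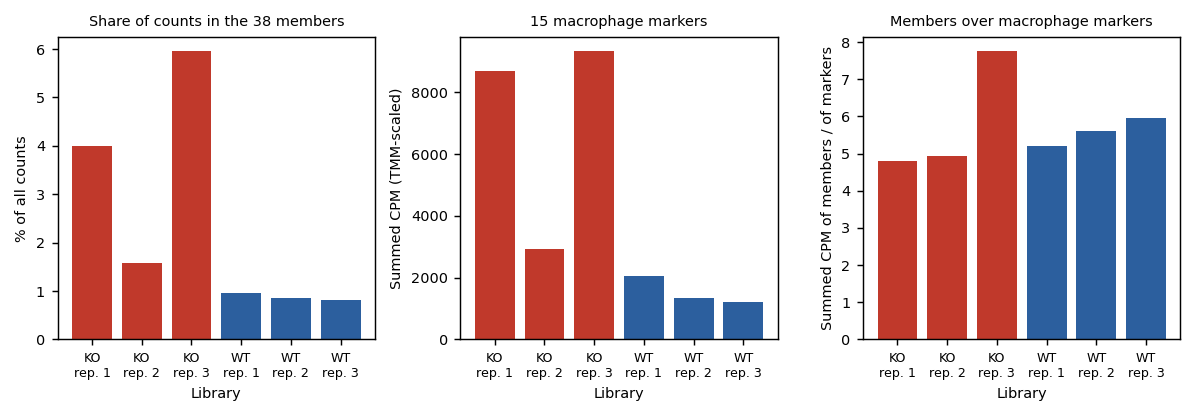
Left, percent of all counts in the 38 members in each library; middle, summed CPM of 15 macrophage markers; right, the ratio of the summed CPM of members to that of the markers. Both sums are higher in each KO library (red) than in each WT library (blue), while the ratio lies between 4.80 and 5.96 in 5 libraries and at 7.75 in KO replicate 3.

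**Figure D5:**
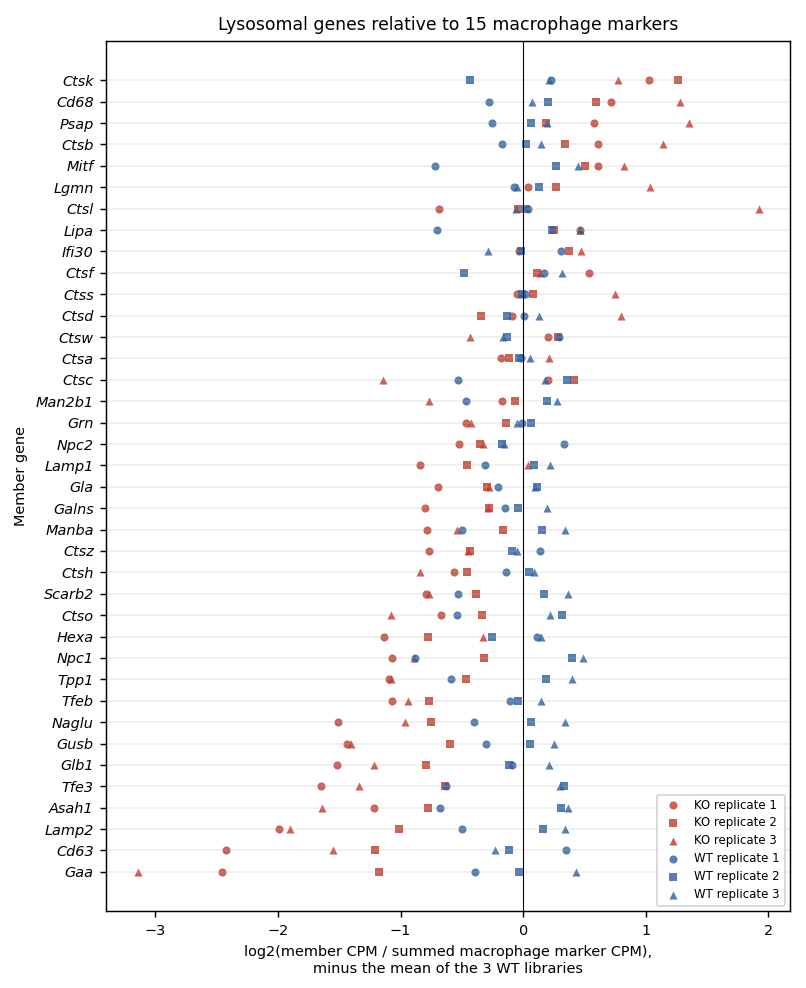
Log2 of each member's CPM over the summed macrophage marker CPM, minus the mean of the 3 WT libraries, with 1 point per library (red KO, blue WT) and genes ordered by the difference of group means. Ctsk, Cd68, Ctsb and Mitf have all KO points to the right of all WT points, and Gaa, Cd63 and Lamp2 lie farthest to the left.

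Leaving out 1 library changed which members edgeR called. With KO replicate 1 or any 1 of the 3 WT libraries left out, it called 0 of the 38 members and 0% of all genes. The members higher at an unadjusted p under 0.05 then numbered 28 without KO replicate 1 (16% of all genes) and 32, 27 and 26 without the WT libraries in order (20.2%, 17% and 17%), and for the same 4 omissions DESeq2 called 21, 27, 22 and 20 higher (10.3%, 14.3%, 11.9% and 11.8% of all genes). Without KO replicate 3, 5 members were called (Ctsc, Ctsk, Lipa, Cd68 and Mitf; 4.85% of all genes), and without KO replicate 2, 35 members were (22.7%), where DESeq2 called 24 (12.9%) and 36 (24%). With all libraries DESeq2 called 30 members (17.5% of all genes), limma-voom 12 (5.31%) and limma-voom with quality weights 36 (29.7%). Leaving out KO replicate 3 moved 5 called values by over 1.5 times: Ctsb to 2.46, Ctss to 1.87, Lgmn to 1.99, Psap to 2.41 and Cd68 to 2.61 on the log2 scale, and leaving out KO replicate 1 moved Ctsc to 1.38. Of the members not called, 4 moved as far without KO replicate 3: Ctsl as given above, Ctsd to 1.74, Hexa to 0.83 and Lamp1 to 1.19. Of the 38 members 37 were positive in each of these edgeR and limma fits, except 36 without KO replicate 3.

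Exons of 12 members overlapped those of another gene in the deposited table, and Smart-seq2 reads carry no strand, so such reads cannot be assigned with certainty. The overlap covered 34.4% of Ctsd exon bases (Gm49369, on the same strand, itself higher with a log2 fold change of 2.32), 26.8% for Ctsl, 17.4% for Ctsa, 12.8% for Ctsb and 12.8% for Hexa. On the opposite strand of Ctsa lies Pltp, which rose with a log2 fold change of 4.28 and an SE of 0.80 (551, 105 and 1117 CPM in KO against 33.6, 29.5 and 27.9 CPM in WT). On the opposite strand of Ctsb lies Fdft1, at 96.7 ± 72.4 and 86.5 ± 25.5 CPM.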

How the data were processed

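The deposited table holds whole-number read counts for each gene, which the authors laid out with exon coordinates and a merged length, in the column order of featureCounts, per the file headers. The submitters' processing notes name the build mm10 and DESeq2. Aligner, annotation release, strand setting and the handling of multi-mapped reads were not given in the sources used here. Columns were tied to samples by the library name in the labels, and replicate numbers follow sample order and pair nothing. Members and lists were chosen with earlier results of these data known.

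KO was compared with WT in edgeR 4.0.16 (R 4.3.3; filterByExpr, TMM, quasi-likelihood F test, group only, Benjamini-Hochberg over 18621 genes, threshold 0.05). The SE was obtained from the log2 fold change and its F statistic. CPM used TMM-scaled library sizes, and TPM was computed from the deposited counts and lengths. Alternatives were RLE, library totals only, no filter, a mean log2 CPM of at least 1 (prior count 2), a robust fit, DESeq2 1.42.0, limma-voom 3.58.1 with and without quality weights, and each library left out. DESeq2 with a library left out was added after seeing the data. The genes named are all members and, of each other lysosomal list, the 3 with the smallest p. Pltp, Fdft1, Gm47123, Gm49369 and single markers are named where a result turns on them, and they and the motifs other than the 8-letter palindrome were chosen after values were seen. Member positions matched GENCODE M21 for all 38. The fits were also run on simulated counts, with changes balanced up and down and no outlying library. That run cannot show how the fits behave where 1 library stands apart, as here.

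Library totals were 24369359 to 40574093 counts. Reads carry no molecular identifiers, so the limit that 3 counts set covers counting error only.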

Additional observations from a re-analysis of the deposited data

How the results depend on the processing

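With all libraries, each of the 8 alternative fits kept the direction of all 38 members. DESeq2, limma-voom and limma-voom with quality weights called 30, 12 and 36 members higher, 47, 16 and 85 other lysosomal genes higher, and 3266, 988 and 5531 genes higher, against 19, 30 and 2083. Genes lower were 42 in the main test, 24 with library totals only, 476 without a filter, 1244 with DESeq2 and 4749 with quality weights. Other lysosomal genes lower were 3, 3 and 7 without a filter, with DESeq2 and with quality weights, against 0. The cause of these differences was not tested. With 1 library left out edgeR called 0 to 35 members, 0 to 69 other lysosomal genes and 0 to 4449 genes higher, and 0 to 4 other lysosomal genes and 0 to 3629 genes lower. DESeq2 then called 20 to 36 members, 24 to 74 other lysosomal genes and 1998 to 4709 genes higher, and 0 to 6 other lysosomal genes lower. Genes lower by DESeq2 numbered 86, 4642 and 327 without KO replicates 1, 2 and 3 and 278, 260 and 211 without WT replicates 1, 2 and 3. Library totals only shifted the median of all genes by -0.13 (log2), and the members' median above it was 1.74 against 1.79. With 1 library left out Cd63 ran from -0.21 (without KO replicate 3, where DESeq2 gave -0.20) to 0.81, and DESeq2 gave -0.0179 without WT replicate 3. The ratio of members to macrophage markers, KO minus WT, was 0.237, -0.633 without the C1q genes, and from -0.726 (without KO replicate 3) to 0.753 with 1 library left out. No paired analysis was possible because the labels give the groups no shared replicate numbers. The lowest count of a member in any library was 100, and the part of depth in the calls was not tested.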
